A study of Mus musculus with 8 samples.

Results

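The response of alveolar macrophages to Poly(I:C) in the absence of any drug was read from 4 of the 8 libraries of the series, 2 from cells given vehicle alone and 2 from cells given Poly(I:C) with vehicle. The members were taken by label, as every library without MSDC, and all 11621 genes that passed a filter on low counts were compared, of 15521 in the table. The cells were mouse alveolar macrophages, which live in the airspaces of the lung and clear them of particles, obtained by bronchoalveolar lavage, selected by 2 h of adherence and kept with recombinant GM-CSF at 10 ng/mL. The vehicle group received DMSO for 2 h and no stimulus, and the same 24 h is recorded for its stimulation step. The Poly(I:C) with vehicle group received DMSO for 2 h and then Poly(I:C), a synthetic double-stranded RNA that stands in for viral RNA, at 5 µg/mL for 24 h by the sample labels and overnight by the series text. The other 4 libraries came from cells given MSDC at 10 µM, a code-named compound, with and without Poly(I:C). The strain field of the labels repeats the treatment, so the strain, sex and age of the mice are not given in these sources. Whether replicate libraries represent different animals or cultures is not said in the labels, so the spread behind the p-values is that of these samples alone and could be technical.

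Double-stranded RNA is sensed in endosomes by Toll-like receptor 3 and in the cytosol by the helicases RIG-I and MDA5, which signal through adaptors and kinases to the factors IRF3, IRF7 and NF-kB. These drive interferon-beta and other cytokines, and secreted interferon acts back on the cells through its receptor, Janus kinases and a complex of transcription factors that includes STAT2 and IRF9. That complex binds the interferon-stimulated response element, a repeat of the letters GAAA, in the promoters of antiviral genes. In the lung, alveolar macrophages are known as an early source of interferon during infection by RNA viruses.

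Libraries held 28762425 to 29493223 counts. The limit that a count of 0 allows, 3 counts, was 0.102 to 0.104 CPM per library (CPM being counts scaled to the library's size by TMM). All 12 marker genes of alveolar macrophages exceeded 10 CPM in at least 1 of the 4 libraries, and their summed level was 34300 and 34900 CPM in the vehicle libraries and 34000 and 33200 CPM with Poly(I:C). Siglecf, a lectin that marks these cells, was at 325 and 321 CPM in vehicle and 332 and 336 CPM with Poly(I:C). None of the 7 B-cell markers in the table reached 1 CPM in any library. The 8 T and NK cell markers summed to 136 to 145 CPM, of which Cd2 made up 135 to 145 CPM; the other 7 stayed under 1 CPM, and Cd3e, which defines T cells, had no count. The 7 neutrophil markers summed to 37.7 to 47.7 CPM, and the 7 dendritic cell markers to 46.2 and 39.6 CPM in vehicle and 370 CPM in each Poly(I:C) library, a rise carried by Bst2, which interferon also induces in other cells. Clec9a of the dendritic cell list was also called higher, by 0.88 on the log2 scale. It was at 6.39 and 5.15 CPM in vehicle and 9.42 and 11.8 CPM with Poly(I:C), while Zbtb46 of that list was not called. The 7 monocyte markers summed to 203 and 151 CPM in vehicle and 115 and 104 CPM with Poly(I:C), a fall carried by Fn1, at 198 and 146 CPM and at 108 and 96.3 CPM, while Vcan of the same list rose by 1.36 on the log2 scale (adjusted p = 0.00871, and up to 0.0893 with 1 library left out). The 11 epithelial markers summed to 81.8 and 76.9 CPM and to 54.6 and 56.3 CPM, carried by Cdh1 at 74.0 and 70.0 CPM and at 49.7 and 49.9 CPM. Their part in the results was not tested. In bulk samples fewer cells of a type and less RNA per cell cannot be told apart.

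Which pair of replicates was closer depended on the measure. The counts of the vehicle libraries gave a chi-square of 14.8 per degree of freedom, against 6.32 between the replicates of Poly(I:C) with vehicle, whereas Pearson's r of log2 CPM across genes was 0.991 in vehicle and 0.988 with Poly(I:C). Vehicle replicate 1 was higher than replicate 2 for long transcripts and lower for short ones: the median log2 ratio ran from -0.10 in the shortest of 10 length classes to 0.16 in the longest, against -0.01 to 0.03 over the same classes with Poly(I:C). Across 11500 genes, which are not independent replicates, the replicate difference correlated with log2 transcript length at r = 0.304 in vehicle and -0.0039 with Poly(I:C). Genes induced at least 16-fold were also a median 1.80 times as high in vehicle replicate 1 as in replicate 2, against 0.999 for genes without a call. Calls of lower genes rose from 18 in the shortest class to 69 in the longest, and calls of higher genes went from 97 to 52. Taking out the length trend, an alternative added after seeing the data, gave 953 higher and 613 lower genes.

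**Figure D1:**
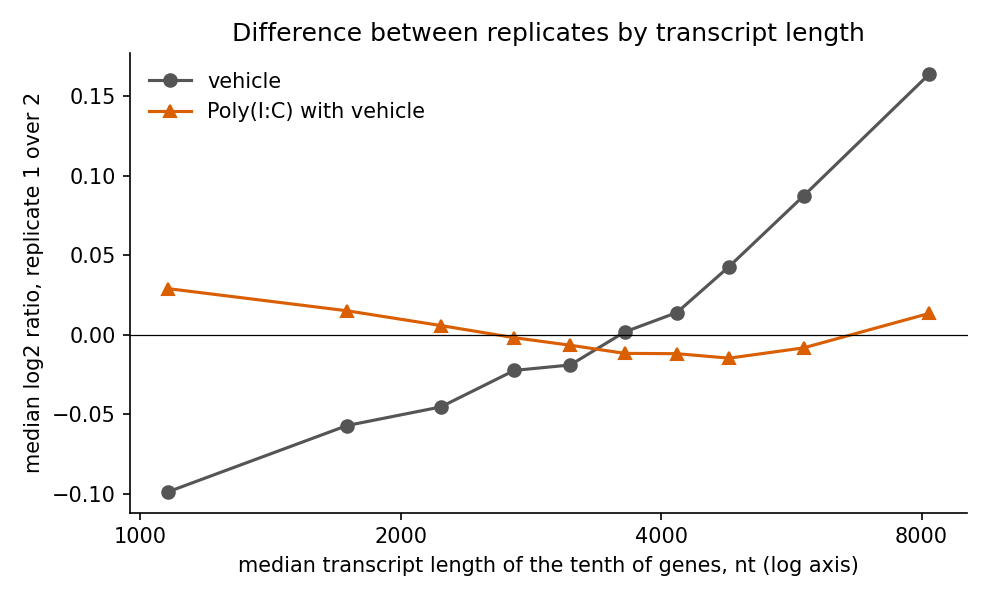
The median log2 ratio of replicate 1 over replicate 2 is plotted against median transcript length (nt, log axis) for 10 classes of genes, in vehicle (grey circles) and in Poly(I:C) with vehicle (orange triangles). The vehicle line climbs from -0.10 to 0.16, while the Poly(I:C) line stays between -0.01 and 0.03.

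The interferon-stimulated response element can be read in the promoters of many of the most strongly induced genes. Shown are the 8 genes with the highest level under Poly(I:C) among those induced at least 16-fold that had the letters GAAA, any 2 bases and GAAA again, on either strand, upstream of the annotated start. The match is in capitals, the flanks run up to 30 bases to each side and stop at the start site, and each is written 5′ to 3′ on the gene's strand from the RefSeq promoter table of GRCm38.p6. A match is a description of the letters and not evidence of binding.
Oas3, minus strand, chr5:120777695-120777764: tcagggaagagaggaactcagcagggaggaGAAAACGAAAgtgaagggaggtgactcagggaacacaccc
Slfn5, plus strand, chr11:82951917-82951986: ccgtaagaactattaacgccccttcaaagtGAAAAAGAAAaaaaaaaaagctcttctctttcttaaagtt
Ifi211, minus strand, chr1:173913047-173913113: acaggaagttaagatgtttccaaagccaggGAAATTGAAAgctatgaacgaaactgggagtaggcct
Ifit3, plus strand, chr19:34583377-34583446: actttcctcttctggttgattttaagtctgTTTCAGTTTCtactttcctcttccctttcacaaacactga
Isg15, minus strand, chr4:156200845-156200914: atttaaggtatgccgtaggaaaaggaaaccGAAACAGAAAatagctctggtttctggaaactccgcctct
Rsad2, minus strand, chr12:26456533-26456602: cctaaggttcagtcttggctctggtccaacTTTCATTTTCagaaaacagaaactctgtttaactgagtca
Ifit1, plus strand, chr19:34640774-34640843: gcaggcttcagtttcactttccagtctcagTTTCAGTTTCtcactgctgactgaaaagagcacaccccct
Oas1g, minus strand, chr5:120887614-120887655: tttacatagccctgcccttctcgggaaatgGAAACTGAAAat

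In Ifit3, Rsad2 and Ifit1 the match lies on the opposite strand and reads TTTC, any 2 bases and TTTC. The 5′ end of the match lay 12 bases before the start in Oas1g, 37 in Ifi211, 66 in Isg15, 75 in Oas3, 85 in Ifit1, 120 in Rsad2, 122 in Ifit3 and 155 in Slfn5. Distances are to the start that defines the window; in Slfn5, Ifi211 and Ifit3 another annotated start lies farther upstream, so the match falls inside the gene's outermost bounds. Oas1g, Ifit1 and Ifit3 each held 2 matches in the whole window, and Isg15 held 3. Promoters of other classes are shown with their results: the gamma-activated site of Irf1 and the NF-kB sites of Cxcl2 and Cxcl3.

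Large changes with Poly(I:C) were mostly rises. Of the 11621 genes tested, 874 were higher (7.52%) and 477 lower (4.10%) by edgeR's quasi-likelihood test at a Benjamini-Hochberg adjusted p under 0.05, and 293 (2.52%) were at least 2-fold higher while 12 (0.103%) were at least 2-fold lower. Every count of calls in the lists below is to be read beside these shares of all tested genes. With library totals alone as the scaling the split was 729 higher and 867 lower, and without Poly(I:C) replicate 1 it was 605 and 243. The rises covered a wide range of sizes. There were 66 genes higher by at least 16-fold, with a median level of 0.192 CPM in vehicle and 14.0 CPM with Poly(I:C). Another 78 genes were 4- to 16-fold higher, going from a median of 8.94 to 59.7 CPM, and 149 were 2- to 4-fold higher, going from 11.6 to 31.7 CPM.

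Rises of at least 2-fold came from every starting level. Of the 293 genes, 85 were under 1 CPM in vehicle, 84 at 1 to 10 CPM, 104 at 10 to 100 CPM and 20 at or above 100 CPM. Genes near the low end could reach the filter through the Poly(I:C) libraries, so no order is read from these counts. The 293 genes together held 1.25 and 1.06% of all TPM (a level corrected for transcript length) in vehicle replicates 1 and 2, and 3.93 and 4.07% with Poly(I:C). On that scale the most abundant of them with Poly(I:C) were B2m, the light chain of class I molecules, at a mean of 8819 TPM against 3478 in vehicle, Ly6e, a membrane-anchored protein, at 3309 against 602 TPM, and Cd52, a small surface glycoprotein, at 2624 against 1110 TPM. They were followed by Lgals3bp, a secreted galectin-binding protein, at 2139 against 595 TPM and by Irf7, the interferon-inducible regulatory factor, at 998.9 against 12.2 TPM.

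**Figure D2:**
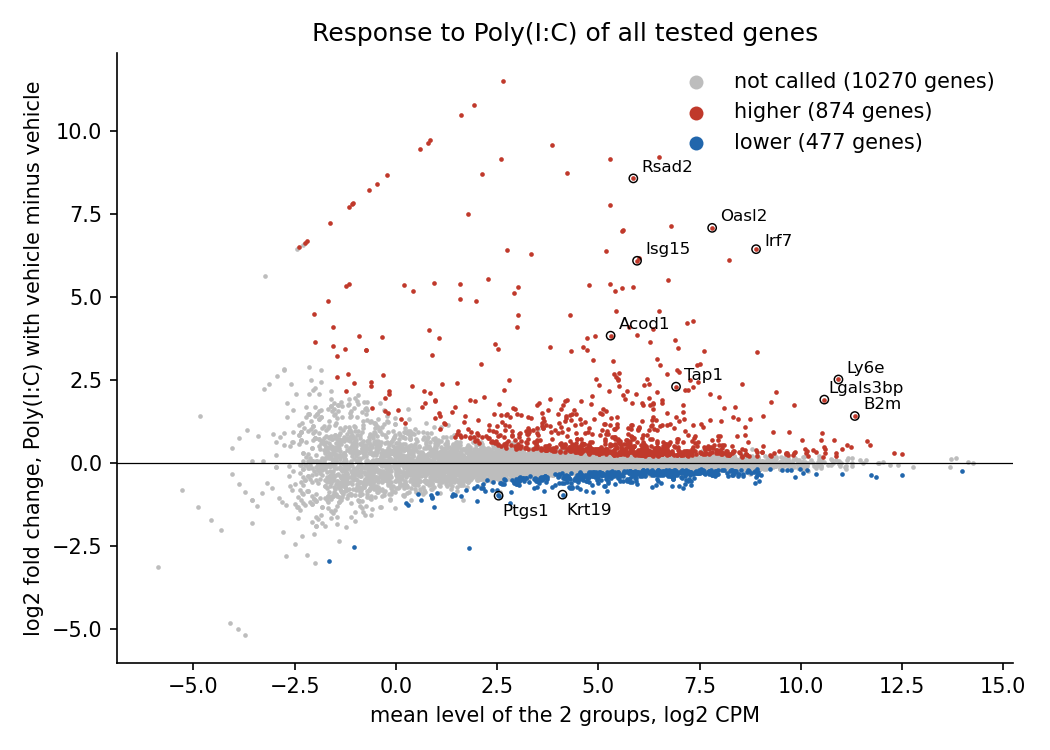
Each point is a gene, with its mean level over both groups on the x axis (log2 CPM) and the fitted log2 fold change, Poly(I:C) with vehicle minus vehicle, on the y axis, coloured by call (874 higher, 477 lower); 2 genes at 0 in all 4 libraries are not drawn, and the slanted line of points at the upper left holds genes with almost no vehicle count, whose fitted fold depends on the prior count. Rises reach far beyond falls, and Ly6e, Lgals3bp and B2m combine a rise with a high level.

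The sensors of double-stranded RNA rose themselves. Of 15 tested genes for sensing and its adaptors, 10 were higher and 0 lower, with a median log2 fold change of 0.62 against 0 for all tested genes. Ddx58, which encodes RIG-I, was at 47.8 and 31.8 CPM in vehicle and 294 and 314 CPM with Poly(I:C), a log2 fold change of 2.94 (SE 0.13, adjusted p = 1.01e-10). Ifih1, which encodes MDA5, was at 35.7 and 29.1 CPM and at 142.9 and 144.5 CPM. In both genes the groups were well apart, and vehicle replicate 1 was the higher of its pair.

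Dhx58 (LGP2, a regulator of both helicases) was at 24.6 and 17.4 CPM in vehicle and 159.6 and 168 CPM with Poly(I:C). Tlr3, the endosomal receptor, was at 11.4 and 8.95 CPM in vehicle and 34.4 and 39.8 CPM with Poly(I:C), a log2 fold change of 1.87 (SE 0.12). Eif2ak2, the RNA-activated kinase PKR, rose by 1.76 (SE 0.09). The 5 genes without a call included the adaptors Mavs and Ticam1, at log2 fold changes of -0.12 and -0.16, which are named here after their values were seen. Of 7 genes for DNA sensing 4 were higher, among them Trex1, a DNA exonuclease, by 2.38, Cgas, the cytosolic DNA sensor, by 0.86, and Tmem173, which encodes STING, by 0.36 (adjusted p = 0.0038, but 0.051 in the least favourable of the fits that left out 1 of the 4 libraries).

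Interferon transcripts were at or near 0 at this time. The table held 6 of 21 listed interferon genes and none passed the filter. Ifnb1 had 0 and 0 counts in vehicle and 0 and 3 with Poly(I:C), which is at the floor of 3 counts, so a difference was not detectable at this depth. Of the receptor and Janus kinase genes 3 of 8 were higher and 0 lower, with small changes: Ifngr2, a chain of the interferon-gamma receptor, by 0.31, the kinase gene Jak2 by 0.28, and Ifnar2, a chain of the type I receptor, by 0.23. Without Poly(I:C) replicate 1, and likewise without replicate 2, 1 of the 8 was called.

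The factors that transmit the interferon signal rose strongly in part. Of 14 IRF and STAT genes 7 were higher and 1 lower, with a median of 0.23. Irf7 was at 15.5 and 6.24 CPM in vehicle and 943 and 939 CPM with Poly(I:C), a log2 fold change of 6.44 (SE 0.27, adjusted p = 7.22e-11). Stat2 was at 60.1 and 49.5 CPM in vehicle and 253 and 285 CPM with Poly(I:C). Irf9, its DNA-binding partner, was at 35.4 and 25.2 CPM and at 102 and 107 CPM. Both genes stood above both vehicle libraries in both Poly(I:C) libraries, by 2.3 on the log2 scale for Stat2 and by 1.79 for Irf9. The vehicle replicates of Irf7 differed more than 2-fold from each other, and the gap to the Poly(I:C) libraries was far larger.

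Irf1, an interferon regulatory factor, was at 29.1 and 26.4 CPM in vehicle and 57.6 and 55.5 CPM with Poly(I:C), a log2 fold change of 1.03 (SE 0.08). Its promoter is shown because it carries the gamma-activated site, a motif of the interferon-gamma response, searched as TTCNNNGAA on both strands and found in 8.30% of the promoters of all tested genes.
Irf1, plus strand, chr11:53769894-53769962: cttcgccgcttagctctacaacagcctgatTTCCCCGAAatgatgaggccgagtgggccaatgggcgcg

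Of 18 feedback inhibitors of cytokine signalling 3 were higher and 1 lower, beside 7.52 and 4.10% of all tested genes, and the median log2 fold change was -0.05. Usp18, which removes ISG15 and blocks the interferon receptor, was at 0.951 and 0.528 CPM in vehicle and at 96.3 CPM in each Poly(I:C) library, a log2 fold change of 7.02 (SE 0.22). Socs1, an inhibitor of Janus kinases, was at 7.34 and 7.30 CPM and at 19.0 and 16.5 CPM. Ptpn6, a phosphatase, rose by 0.36, and Ptpn1, another phosphatase, fell by 0.19 (adjusted p = 0.033, and up to 0.13 with 1 library left out).

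**Figure D3:**
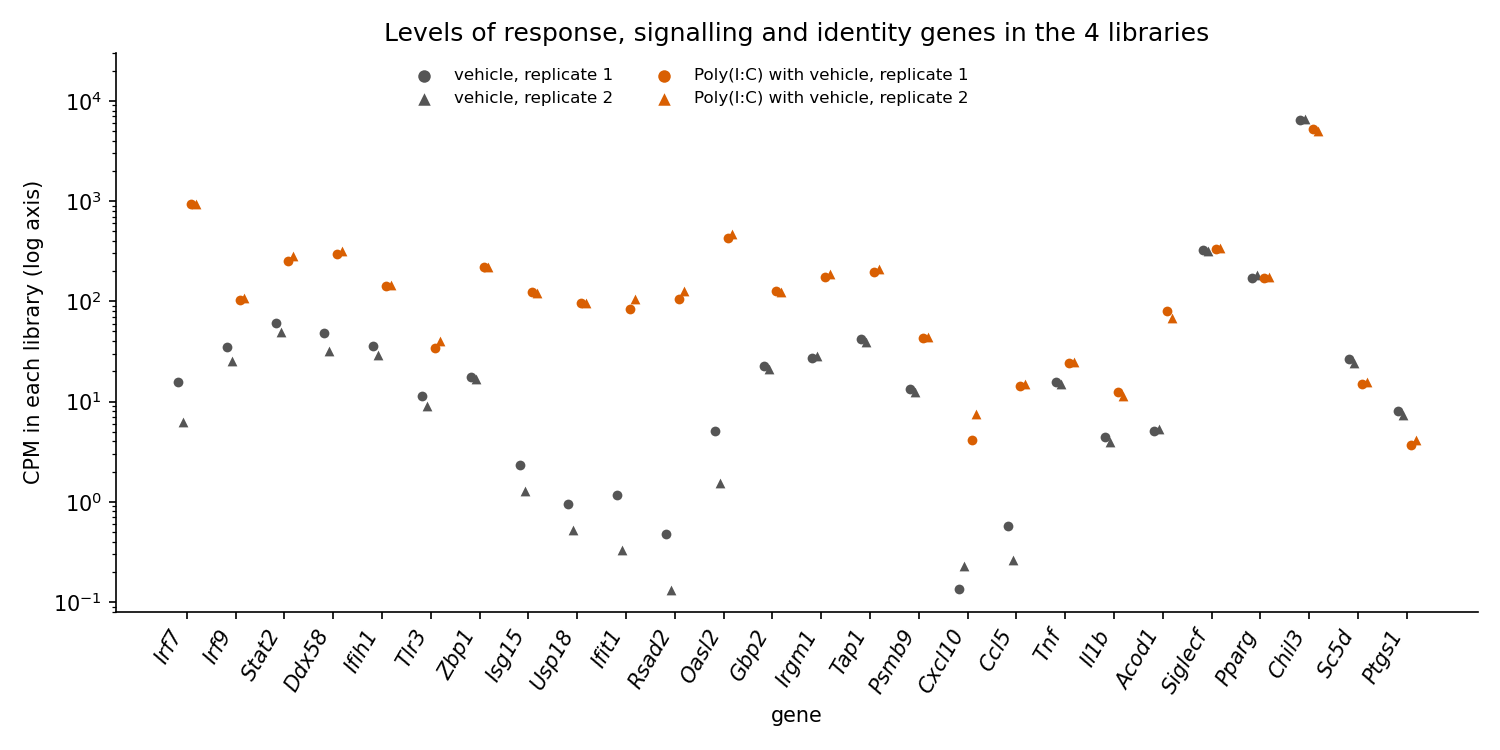
CPM (log axis) of 26 genes in each of the 4 libraries, with vehicle in grey, Poly(I:C) with vehicle in orange, replicate 1 as a circle and replicate 2 as a triangle. Antiviral genes from Irf7 to Oasl2 are separated by group, with vehicle replicate 1 often above replicate 2; Siglecf and Pparg lie level across the 4 libraries, and Chil3, Sc5d and Ptgs1 are lower with Poly(I:C).

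The direct antiviral effectors were among the most induced lists. All 6 IFIT genes, a family with some members that bind foreign RNA, were higher (median log2 fold change 7.06). Their summed level went from 3.77 and 1.98 CPM in vehicle to 506 and 579 CPM. Ifit1 was at 1.16 and 0.330 CPM in vehicle and at 82.9 and 106 CPM with Poly(I:C). Of 8 genes of the oligoadenylate synthetase list 7 were higher, with a median of 5.33. Oasl2 was at 5.06 and 1.55 CPM in vehicle and at 424 and 466 CPM with Poly(I:C). Oas1a, another synthetase, was at 48.1 and 33.6 CPM and at 321 and 327 CPM.

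All 15 tested virus restriction genes were higher, at a median of 4.57. Rsad2 (viperin, which makes a chain-terminating nucleotide) was at 0.476 and 0.132 CPM in vehicle and 105 and 127 CPM with Poly(I:C), a log2 fold change of 8.57 (SE 0.23). Bst2 (tetherin, which holds budding virions) was at 36.9 and 31.8 CPM and at 358 and 355 CPM. Of the Phf11 genes, which encode zinc finger proteins, Phf11b went from 2.45 and 2.08 CPM to 81.5 and 83.5 CPM, and Phf11a rose by 6.29 and Phf11d by 4.57. Ifi44, an interferon-inducible gene of this list, had 0 counts in vehicle and 206 with Poly(I:C), at least 71.6-fold higher when 3 counts over the group stand for 0. Members of these families resemble each other in sequence, and 5.95 to 7.19% of the deposited values per library were not whole numbers, so the split of reads among Ifit, Oas, Gbp, Ifi200, Slfn and class I genes is uncertain.

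The interferon-inducible GTPases rose as families. All 8 guanylate-binding protein genes, which act on pathogen membranes, were higher, with a median of 3.30. Gbp6 was at 11.4 and 7.20 CPM in vehicle and 140.3 and 165 CPM with Poly(I:C). Gbp2 was at 22.4 and 21.0 CPM and at 127 and 125 CPM. Of 9 immunity-related GTPase genes 7 were higher and 1 lower. Irgm1, a regulator of the family, was at 27.5 and 28.2 CPM in vehicle and 173 and 188 CPM with Poly(I:C), and Iigp1 had 0 counts in vehicle and 99 with Poly(I:C), at least 34.4-fold higher.

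All 8 Schlafen genes and all 10 Ifi200 genes tested were higher, with medians of 2.50 and 5.52. Slfn1 was at 1.12 and 0.627 CPM in vehicle and 68.8 and 76.6 CPM with Poly(I:C), while Slfn2 started at 156 and 151 CPM and reached 374 and 371 CPM. Ifi211, a member of the family of DNA-binding proteins encoded in the Ifi200 cluster, was at 5.54 and 3.60 CPM and at 201 and 213 CPM, a log2 fold change of 5.50 (SE 0.14). Ifi204 was at 18.8 and 13.3 CPM and at 302 and 317 CPM. Vehicle replicate 1 was above replicate 2 for 8 of the 10 Ifi200 genes, 7 of the 8 Schlafen genes and all 8 of the oligoadenylate list, with median ratios of 1.54, 1.47 and 1.58.

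Protein conjugation and ADP-ribosylation genes rose in part. Of 7 genes for ISG15 and its conjugation 6 were higher (median 2.17): Isg15 itself was at 2.31 and 1.29 CPM in vehicle and at 123 and 122 CPM with Poly(I:C), and its conjugating enzyme gene Ube2l6 at 37.5 and 28.3 CPM and at 213 and 229.6 CPM. Of 15 PARP-family genes 8 were higher and 0 lower (median 0.52), led by Parp12, an ADP-ribosyltransferase, from 54.1 and 46.9 CPM to 221 and 245 CPM. Of 7 nuclear body genes 6 were higher (median 1.75). Sp100, a component of PML bodies, was at 35.5 and 26.0 CPM in vehicle and 213 and 219 CPM with Poly(I:C), and Pml, their scaffold, at 42.7 and 41.5 CPM and at 140.5 and 152.5 CPM.

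**Figure D4:**
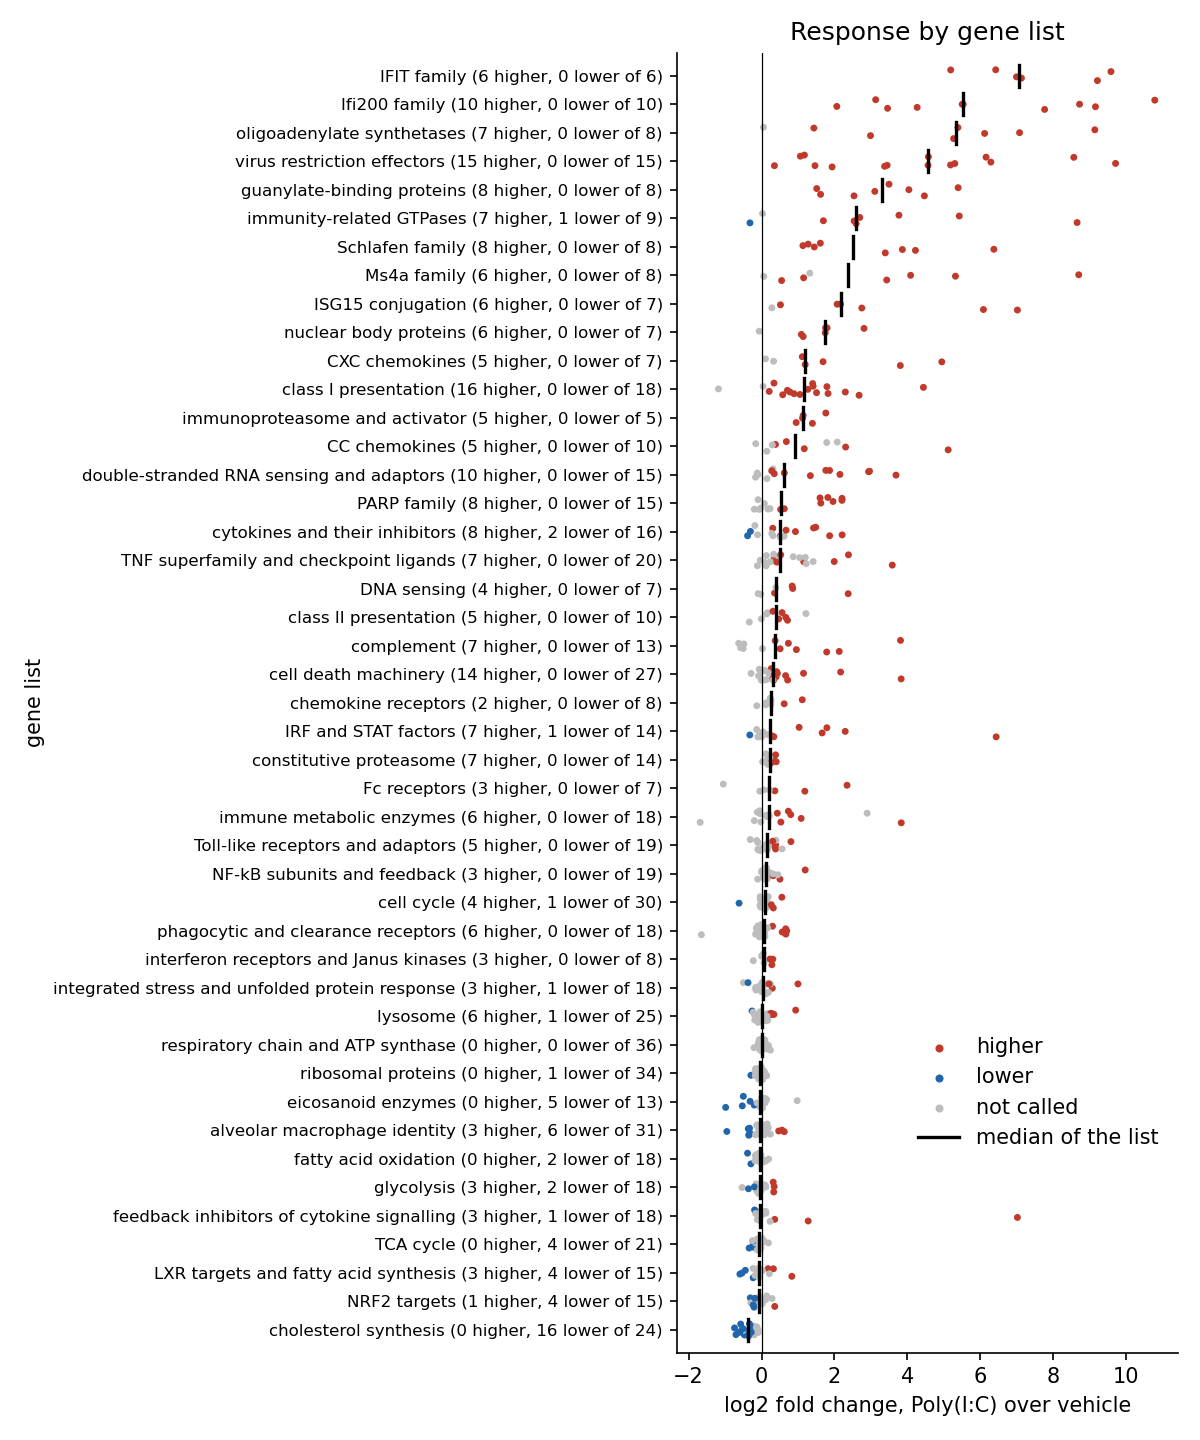
Each point is a tested gene of a list, at its fitted log2 fold change (Poly(I:C) with vehicle minus vehicle) and coloured by call, with the list median as a black bar and the counts of calls in the label. IFIT genes (median 7.06) stand at the top and cholesterol synthesis (median -0.36) at the bottom, and the lists for respiration and ribosomal proteins lie near 0.

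Class I antigen presentation rose broadly. Of 18 genes 16 were higher and 0 lower, with a median of 1.16, and their summed level went from 6560 and 6570 CPM in vehicle to 12000 and 12200 CPM. Tap1, a chain of the peptide transporter, was at 42.2 and 39.5 CPM in vehicle and 194 and 208 CPM with Poly(I:C), and Tapbp, which loads peptide, at 267.5 and 269 CPM and at 862 and 1039 CPM. Nlrc5, the class I transactivator, was at 12.3 and 10.2 CPM and at 69.7 and 73.8 CPM, a log2 fold change of 2.68 (SE 0.13). The proteasome changed with it. All 5 genes of the immunoproteasome and its activator were higher (median 1.14), with Psmb9 at 13.4 and 12.4 CPM in vehicle and 43.0 and 44.3 CPM with Poly(I:C), and Psmb8 rising by 1.40.

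Constitutive proteasome genes moved far less. Of 14 genes 7 were higher and 0 lower (median 0.23), the largest being Psma5, an alpha subunit, by 0.40. Fewer were called without vehicle replicate 1 or either Poly(I:C) library, and more without vehicle replicate 2. The number higher was 8 with the length trend removed and 3 with library totals alone as the scaling. Class II presentation rose modestly in 5 of 10 genes, at a median of 0.39. H2-Ab1, a class II beta chain, was at 60.7 and 61.3 CPM in vehicle and 103 and 96.8 CPM with Poly(I:C), and Cd74, the invariant chain, at 572 and 578 CPM and at 719 and 711 CPM, a log2 fold change of 0.31 (SE 0.05).

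Chemokines rose from very different levels. Of 10 CC chemokine genes 5 were higher and 0 lower (median 0.93), and of 7 CXC chemokine genes 5 were higher (median 1.20). Ccl5, which attracts T cells, was at 0.578 and 0.264 CPM in vehicle and 14.3 and 15.1 CPM with Poly(I:C), and Ccl2, which attracts monocytes, at 16.7 and 14.2 CPM and at 76.7 and 75.9 CPM. Cxcl10, a ligand of CXCR3, was at 0.136 and 0.231 CPM and at 4.12 and 7.50 CPM, so its fold change of 4.95 (log2, SE 0.50) rested on a low level. Ccl9, already at 848 and 769.7 CPM in vehicle, was at 1315 and 1278 CPM with Poly(I:C).

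Of the neutrophil-attracting chemokines, Cxcl3 was at 10.7 and 8.98 CPM in vehicle and 24.2 and 20.9 CPM with Poly(I:C), and Cxcl2 at 1.46 and 1.12 CPM and at 4.95 and 3.38 CPM. These were the 2 of 12 chemokine promoters that held the NF-kB letters GGGA, any base and TTTCC on either strand, which were found in 0.512% of the promoters of all tested genes.
Cxcl2, plus strand, chr5:90903772-90903841: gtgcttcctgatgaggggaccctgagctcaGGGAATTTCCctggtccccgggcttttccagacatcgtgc
Cxcl3, plus strand, chr5:90785998-90786067: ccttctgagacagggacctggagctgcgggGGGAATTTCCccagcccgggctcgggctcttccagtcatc

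Of 8 chemokine receptors 2 were higher (4 without vehicle replicate 1), among them Ccrl2, an atypical receptor, by 1.12.

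Cytokine genes were mixed. Of 16 tested, 8 were higher and 2 lower (median 0.52), with 5 higher without Poly(I:C) replicate 2 and 1 lower without Poly(I:C) replicate 1. Il1b, a product of inflammatory activation, was at 4.45 and 3.96 CPM in vehicle and 12.3 and 11.3 CPM with Poly(I:C), and Tnf at 15.8 and 14.8 CPM and at 24.2 and 24.5 CPM. Il1rn, the antagonist of interleukin-1, was at 158 and 129.9 CPM and at 193 and 217 CPM, a log2 fold change of 0.51 (SE 0.09). Il18bp, which neutralises interleukin-18, was at 2.62 and 1.88 CPM and at 8.94 and 11.9 CPM, whereas Il18 was among the 2 that fell, by 0.31. Csf1, the macrophage growth factor, was at 7.92 and 7.63 CPM and at 27.7 and 29.1 CPM. Il6 had 4 and 0 counts in vehicle and 3 and 3 with Poly(I:C) and was not tested.

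Among TNF-family and checkpoint ligands 7 of 20 were higher and 0 lower (median 0.50). Tnfsf10, which encodes the death ligand TRAIL, was at 1.12 and 0.561 CPM in vehicle and 10.4 and 9.82 CPM with Poly(I:C), and Lgals9, an immune-regulatory galectin, at 110.0 and 93.9 CPM and at 384 and 427 CPM. Of 19 genes for NF-kB subunits and feedback 3 were higher (median 0.13), beside 7.52% of all tested genes, with Tnfaip3, a feedback inhibitor, at 34.8 and 30.3 CPM and at 45.6 and 46.7 CPM; the list had 1 call without vehicle replicate 2. Of 19 Toll-like receptor and adaptor genes outside the sensing list 5 were higher (median 0.16; 8 without vehicle replicate 1 and 3 without Poly(I:C) replicate 2), led by Unc93b1, the chaperone of endosomal receptors, at 256 and 241 CPM and at 427 and 441 CPM.

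Genes of cell death rose in 14 of 27 cases and fell in 0 (median 0.31), a count of 9 without either Poly(I:C) library. Mlkl, the executioner of necroptosis, was at 14.3 and 13.5 CPM in vehicle and 61.6 and 63.6 CPM with Poly(I:C). Xaf1, an antagonist of apoptosis inhibitors, was at 5.23 and 2.77 CPM and at 55.7 and 58.0 CPM. Of the inflammatory caspase pathway, Casp4 rose by 1.15, Gsdmd, which encodes the pore-forming gasdermin D, by 0.72, and Casp1 by 0.66.

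Complement and surface receptors rose selectively. Of 13 complement genes 7 were higher and 0 lower (median 0.37), while DESeq2 called 6 and limma 5. Fewer were higher without vehicle replicate 2 or without Poly(I:C) replicate 2. Cfb, the protease component of the alternative pathway, was at 242 and 252 CPM in vehicle and 1118 and 1048 CPM with Poly(I:C), a log2 fold change of 2.13 (SE 0.06), and C3 at 432 and 454 CPM and at 640 and 623 CPM. Of 7 Fc receptor genes 3 were higher, beside 7.52% of all tested genes, while DESeq2 called 3 and limma 2. Fewer were called when either Poly(I:C) library was left out. Fcgr1, the high-affinity receptor for IgG, was at 23.8 and 22.4 CPM and at 117 and 118 CPM, and Fcgr4 rose by 1.19.

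Of 18 receptors for uptake and clearance 6 were higher and 0 lower (median 0.07): Axl, a receptor for dying cells, was at 1299 and 1459 CPM in vehicle and 2201 and 2252 CPM with Poly(I:C), and Clec7a, the receptor for fungal glucans, at 2530 and 2388 CPM and at 3969 and 3837 CPM. Of 8 tested Ms4a genes, which encode membrane-spanning proteins, 6 were higher (median 2.38), against 4 with DESeq2 and 4 with limma. Among the 6, Ms4a4b had 1 and 0 counts in vehicle and 29 and 19 with Poly(I:C). Ms4a6b had 4 and 0 counts in vehicle and 25 and 19 with Poly(I:C). Ms4a6c was at 5.61 and 6.27 CPM in vehicle and 98.5 and 104 CPM with Poly(I:C), and Ms4a6d at 108 and 93.8 CPM and at 222 and 228 CPM. Ly6e was at 632 and 529 CPM and at 3245 and 3392 CPM, with the groups far apart.

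Immune metabolic enzymes were higher in 6 of 18 cases and lower in 0 (median 0.20). Acod1, which makes itaconate, was at 5.03 and 5.32 CPM in vehicle and 79.1 and 68.4 CPM with Poly(I:C). Ass1, which recycles citrulline to arginine, was at 244 and 262 CPM and at 534 and 540.1 CPM, and Gch1, which starts tetrahydrobiopterin synthesis, rose by 0.80. Nos2, the inducible nitric oxide synthase, had 3 counts in vehicle and 23 with Poly(I:C), a ratio of 7.99 (95% counting interval 2.42 to 41.6), and was not called (adjusted p = 0.086).

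Calls among enzymes of eicosanoid synthesis went the other way, 5 of 13 being lower and 0 higher, beside 4.10 and 7.52% of all tested genes. The other 8 had no call, the list median was -0.04, and log2 fold changes ran from -0.98 to 0.98. Ptgs1, which encodes cyclooxygenase-1, was at 8.12 and 7.30 CPM in vehicle and 3.67 and 4.12 CPM with Poly(I:C). Alox5 (5-lipoxygenase, the first step to leukotrienes) was at 163.5 and 186 CPM and at 125 and 117 CPM, Ltc4s (leukotriene C4 synthase) at 40.2 and 38.9 CPM and at 29.5 and 26.5 CPM, and Lta4h (leukotriene A4 hydrolase) at 192 and 195 CPM and at 155 and 156 CPM. In each of these 4 genes both Poly(I:C) libraries lay below both vehicle libraries. The 3 enzymes of the leukotriene pathway fell by 0.53, 0.50 and 0.31 on the log2 scale, while its activating protein gene Alox5ap, named after its value was seen, was at 0.10 and not called.

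Sterol synthesis was the list with the most calls of lower genes. Of 24 genes 16 were lower and 0 higher, with a median of -0.36, and 13 to 17 were lower when each of the 4 libraries was left out in turn. Sc5d fell by 0.74 and Sqle by 0.70, both enzymes that act from squalene onwards. Sqle, which oxidises squalene, was at 44.7 and 43.8 CPM in vehicle and 25 and 29.4 CPM with Poly(I:C), and Cyp51, a later demethylase, at 62.6 and 60.5 CPM and at 42.2 and 42.8 CPM. The letters TCACNCCAC, a form of the sterol regulatory element, occurred in 1 of the 17 promoters of this list that were available and in 1.28% of the promoters of all tested genes.

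The counts in this paragraph stand beside 7.52% higher and 4.10% lower of all tested genes. Neighbouring lipid genes were mixed, 3 of 15 LXR targets and fatty acid synthesis genes being higher and 4 lower. Without either Poly(I:C) library 1 of them was higher. Scd1 and Scd2, which desaturate fatty acids, fell by 0.59 and 0.53, and Abca1, which exports cholesterol, rose from 129.7 and 85.5 CPM to 204 and 179 CPM. Of 18 glycolysis genes 3 were higher and 2 lower and of 21 TCA cycle genes 4 were lower, and none of these calls was made without Poly(I:C) replicate 1. None of 36 respiratory chain and ATP synthase genes was called by edgeR (3 had an unadjusted p under 0.05, and DESeq2 called 1), and their median log2 fold change was 0.002. Of 18 fatty acid oxidation genes 2 were lower, 4 without vehicle replicate 1 and 1 without any other of the 4 libraries.

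Of 31 identity genes of alveolar macrophages 3 were higher (5 without vehicle replicate 1) and 6 lower, beside 7.52 and 4.10% of all tested genes, with a median of -0.04 and 22 without a call. Pparg, the factor that shapes these cells, was at 169.7 and 182 CPM in vehicle and 171 and 175 CPM with Poly(I:C). The falls included Chil3, an abundant chitinase-like protein, at 6366 and 6601 CPM and at 5176 and 4995 CPM, Krt19, a keratin, at 20.9 and 24.8 CPM and at 11.9 and 11.7 CPM, and Marco, a scavenger receptor, which fell by 0.36. Ear1, a ribonuclease of the eosinophil-associated family, rose by 0.47.

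Counts in the stress and housekeeping lists are to be read beside the 7.52% of all tested genes that were higher and the 4.10% that were lower. Of 30 cell cycle genes 4 were higher (1 without Poly(I:C) replicate 1 and 2 without replicate 2) and 1 lower: Mki67, a proliferation antigen, was at 589.6 and 535 CPM in vehicle and 399.9 and 334 CPM with Poly(I:C), and Cdkn1a, an inhibitor of cyclin-dependent kinases, at 82.1 and 78.7 CPM and at 112 and 125 CPM. Ddit3 (CHOP, a factor of the stress response) was at 9.0 and 11.2 CPM and at 19.4 and 21.1 CPM, 1 of 3 higher among 18 genes for integrated stress and protein folding, a count of 1 without either Poly(I:C) library and 5 without vehicle replicate 2. Of 34 ribosomal protein genes 1 was lower, and this count was 9 without vehicle replicate 1. Of 25 lysosome genes 6 were higher (3 without Poly(I:C) replicate 2) and 1 lower (4 without vehicle replicate 1), with Npc2, a sterol-binding protein, at 560.2 and 586 CPM and at 1106 and 1087 CPM.

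The falls outside these lists were small beside the rises. Adgrg1, an adhesion receptor, was at 5.23 and 5.78 CPM in vehicle and 2.08 and 2.89 CPM with Poly(I:C). Ceacam1, a cell adhesion molecule, was at 38.5 and 36.8 CPM and at 18.3 and 22.6 CPM, a fall of 0.88 on the log2 scale (SE 0.11). Serpinb1a, an inhibitor of neutrophil proteases, was at 45.1 and 50.4 CPM and at 28.1 and 24.7 CPM. Ifi27, named for induction by interferon, was at 39.0 and 28.3 CPM and at 20.6 and 16.5 CPM and so fell by 0.86 (SE 0.14). Of the 12 largest falls, the calls of the ubiquitin ligase gene Marchf4 and of Adamtsl4 were lost when 1 library was left out, with adjusted p up to 0.054 and 0.22.

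Genes that rose were often neighbours on the chromosome. Of 285 genes that were at least 2-fold higher and had a position, 119 (41.8%) lay next to another such gene. This used the order of tested genes and gave 36 runs. Of 475 genes lower by any amount, 51 (10.7%) lay next to another lower gene. The classes differ in threshold and made up 2.52 and 4.10% of all tested genes. The shares expected without clustering were not computed, so the 2 percentages are not compared. The longest run held 10 Ifi200 genes at chr1:173468485-174031755, followed by 8 Schlafen genes at chr11:82951349-83215154 and by 7 genes, 6 of them Trim genes, at chr7:104244448-104507853. All 6 Ifit genes formed a run at chr19:34550550-34662981, and 5 Oas genes formed another at chr5:120730333-120907544. Runs of 5 Ms4a genes lay at chr19:11404717-11604804, and 4 Gbp genes each at chr3:142496934-142638008 and chr5:105012513-105295871. The Ms4a run includes Ms4a4b and Ms4a6b, which rest on few counts. Many runs are families of similar sequence, so neighbouring genes can share reads.

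The share of promoters with the interferon-stimulated response element grew with the size of the rise. The window covered 250 bases before to 50 after each annotated start, and 9379 of the 11621 tested genes had at least 1. GAAA, any 2 bases and GAAA, on either strand, occurred in 373 of these (3.98%). They were present in 25 of 46 genes that were at least 16-fold higher (54.3%), 33.9% of those 4- to 16-fold higher, 26.2% of those 2- to 4-fold higher and 7.74% of those higher by less. Among genes without a call the share was 3.06%, and among those lower by less than 2-fold it was 1.91%. Of the genes at least 2-fold lower 7 had a window and 1 of these held a match (14.3%), a class too small to place in this order. The mean GC content of the windows fell along the same classes, from 60.9% without a call to 48.0% at 16-fold and above, and its part in the shares was not tested. The 25 genes include several neighbouring members of the Ifit and Ifi200 families, whose promoters may not count as separate. What such families add to the shares was not tested either. The gamma-activated site showed no such order, at 8.70, 17.7, 11.2 and 8.37% of the 4 classes of higher genes from the largest change down and 8.26% of genes without a call.

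Most genes with a match were not called. Of the 373 genes with a match 111 were higher (29.8%, against 6.46% of 9006 genes without), 74 were at least 2-fold higher (19.8% against 1.57%) and 8 were lower (2.14% against 4.05%). Their median log2 fold change was 0.09.

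**Figure D5:**
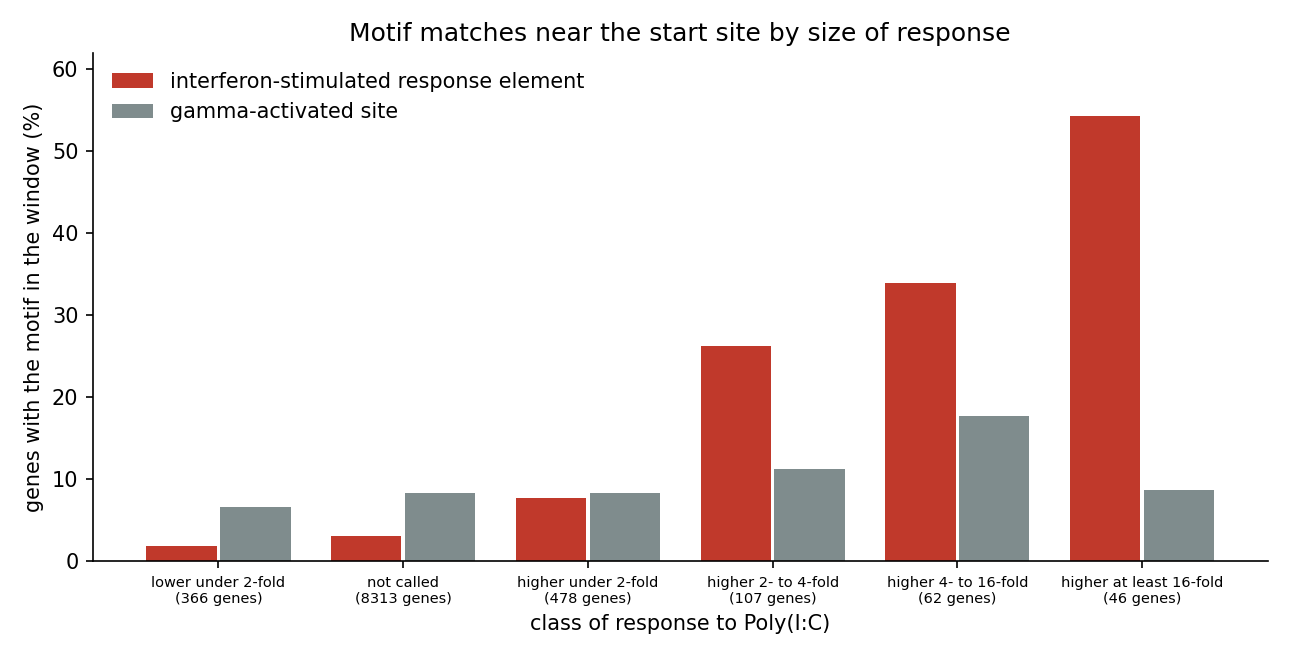
Bars give the percentage of genes whose promoter window holds the interferon-stimulated response element (red) or the gamma-activated site (grey), by class of response to Poly(I:C), with the number of genes under each class. The red bars climb from 1.91% of genes lower by less than 2-fold to 54.3% of genes at least 16-fold higher, and the grey bars lie between 6.56 and 17.7%; the 7 genes at least 2-fold lower are not drawn.

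The response in vehicle was set against the response in cells given MSDC by the difference of the responses in the same fit. It called 26 of 11621 genes (0.224%), 14 with the larger log2 change in MSDC and 12 with the larger in vehicle, and 5 to 92 genes when 1 library was left out. For Acod1 the log2 fold change was 3.83 (SE 0.11) in vehicle and 2.3 (SE 0.12) in MSDC, a difference of -1.54 (adjusted p = 0.000622). Cfb rose by 2.13 (SE 0.06) in vehicle and 1.28 (SE 0.06) in MSDC. Ifi27 fell by 0.86 (SE 0.14) in vehicle and rose by 1.01 (SE 0.14) in MSDC. The responses share no libraries, and the 2 groups without Poly(I:C) differ by the compound.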

How the data were processed

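Bulk RNA-seq had been made from total RNA of cultured cells. Expected counts and TPM were deposited by the authors in a single table, named read counts and TPM per the file headers; their derivation is not given in the sources, and the 8 FPKM columns were not used. The submitters' processing notes list Bowtie2 2.3.4, TopHat2 2.1.1, Cuffdiff and the build GRCm38 (mm10), without roles. Of the 15521 genes, 575 had no count, 23 symbols turned into dates were repaired from gene identifiers, and 15419 identifiers (99.3%) matched RefSeq. Values that were not whole within 1e-06 were rounded.

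The rounded counts of all 8 libraries were filtered with filterByExpr (11621 genes kept) and scaled by TMM (factors 0.985 to 1.027). They were fitted with 1 quasi-likelihood model of the 4 groups, which shares its spread over the groups. The fit used edgeR 4.0.16 under R 4.3.3, with a common dispersion of 0.00383 and 4 residual degrees of freedom. Tests were two-sided, with Benjamini-Hochberg adjustment over all tested genes and a threshold of 0.05. The SE was derived from the change and its test statistic. CPM values use the TMM-scaled totals. Intervals and floors cover counting error only. On simulated data for Poly(I:C) in vehicle, run on 11499 genes, 62.5, 89.6 and 96.9% of genes changed 1.5-, 2- and 4-fold were recovered. In the same run 16 unchanged genes were called. Simulated counts were independent draws at each gene's fitted dispersion. They lacked the difference by transcript length between the vehicle replicates, so these figures may not hold for the real libraries.

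The comparison and the gene lists were chosen with earlier results of these data known, so no list is independent evidence. Genes are named by a rule: the 12 largest called rises and the 12 largest called falls, without predicted models, where the 4 libraries separate by group and the higher mean reaches 5 CPM; in each list, up to 5 genes of smallest p; the 8 most abundant by TPM among genes at least 2-fold higher; and Ifnb1, Il6, Tnf, Il1b, Il1rn, Cxcl10, Ccl2, Isg15, Irf7, Acod1, Nos2, Pparg, Siglecf and Tlr3. Part of the genes so named is printed. Oas3, Slfn5, H2-D1, Il18, Ifi44 and Iigp1 lie outside the rule and were chosen after their values were seen, as were those said to be in the text. Alternatives were DESeq2 1.42.0, limma 3.58.1 on log2 CPM, other scalings and filters, a block for the replicate number and leaving out each library. Transcript lengths came from the GENCODE annotation of GRCm38 and promoters and coordinates from RefSeq, with no genes of chromosome 18 printed as sequence.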

Additional observations from a re-analysis of the deposited data

Results flagged for a closer look

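The test of the difference of the responses to Poly(I:C), MSDC minus vehicle, called 26 genes, and 18 of them belong to the lists above or were picked for their values. Of these, 11 had a larger log2 change in MSDC. Slfn5 differed by 2.92, Xaf1 by 2.33, Ifi27 by 1.87, Slfn8 by 1.78 and Oas1a by 1.23. Ifi204 differed by 1.20, Irf9 by 1.10, Lgals9 by 1.05, Gbp7 by 1.03, Dhx58 by 0.98 and Mndal by 0.75. The other 7 had a larger log2 change in vehicle: Acod1 differed by -1.54, Cfb by -0.85, Clec4e, a lectin receptor, by -0.72, Ass1 by -0.58, H2-K1, a class I heavy chain, by -0.44, H2-D1, another class I heavy chain, by -0.43, and Clec7a by -0.39.

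Ifi27 was the gene among these 18 whose responses had opposite signs beyond 2 SE, -0.86 (SE 0.14) in vehicle and 1.01 (SE 0.14) in MSDC. Clec4e rose by 0.57 (SE 0.10) in vehicle and was at -0.15 (SE 0.10) in MSDC. Irf9 rose by 1.79 (SE 0.12) in vehicle and 2.89 (SE 0.13) in MSDC. Which genes are called depends on single libraries, as the counts in the next part show.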

How the results depend on the processing

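The count of higher genes (874) was within 1.5 times under every alternative run, from 605 to 979 with a library left out and 685 to 1012 otherwise. The count of lower genes (477) was 867 with library totals alone as the scaling, which shifted the all-gene median to -0.05 and the share of calls that were higher from 64.7 to 45.7%, and 257 with only these 2 groups fitted; with each library left out it ran from 243 (without Poly(I:C) with vehicle replicate 1) to 667 (without vehicle replicate 2). The difference of the responses (26) was 47 with DESeq2, 16 with limma-trend on log2 CPM, 116 with no filter on low counts and 40 with the length trend removed, which was chosen after seeing the data. With each library left out it ran from 5 (without MSDC replicate 1) to 92 (without vehicle replicate 2); it was 63 without vehicle replicate 1, 13 and 16 without the Poly(I:C) with vehicle replicates and 8 and 6 without those of Poly(I:C) with MSDC. The cause was not tested, except that a library left out leaves its group with 1, assumed to vary like the others. The labels do not say whether replicate numbers pair the samples. Correlations of replicate differences between groups ran from -0.0287 to 0.0399. Such values show no shared difference across genes but cannot tell whether samples were paired. The fit with a replicate block called 860 higher, 440 lower and 24 differing genes. A set of 293 named genes, called or not, was also followed one by one, except without the libraries given MSDC. It is not the set of 293 genes at least 2-fold higher. Under the alternatives followed none was reversed, and 22 lost their call with only these 2 groups fitted. More lost their call when a Poly(I:C) with vehicle library was left out than when a vehicle library was. Genes at a few counts, such as Ifnb1 and Il6, are limited by depth.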

Other observations

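Several abundant or strongly induced genes lay outside the lists and were chosen after their values were seen. Rnf213, a giant ubiquitin ligase, was at 122 and 52.3 CPM in vehicle and 984 and 774 CPM with Poly(I:C), a log2 fold change of 3.34 (SE 0.25). Znfx1, a helicase that senses RNA at mitochondria, was at 133 and 108 CPM and at 598 and 646 CPM, and Siglec1, a sialic acid receptor of macrophages, at 489 and 355 CPM and at 1385 and 1419 CPM. Trim30a went from 54.4 and 38.8 CPM to 253 and 273 CPM. In these 4 genes both Poly(I:C) libraries stood above both vehicle libraries, and vehicle replicate 1 was above replicate 2.

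Further genes were also chosen after their values were seen. Pnp, a purine nucleoside phosphorylase, was at 188 and 167 CPM in vehicle and 443 and 479 CPM with Poly(I:C), and Dck, deoxycytidine kinase, at 143 and 111 CPM and at 291 and 326 CPM. Inhba, which encodes activin A, rose by 1.03 (SE 0.09), and Slamf8, a surface receptor of macrophages, by 1.75 (SE 0.14). Among falls, Epas1, the hypoxia-inducible factor HIF-2 alpha, was at 108 and 105 CPM in vehicle and 62.8 and 70.2 CPM with Poly(I:C), and Vsir, a checkpoint receptor also called VISTA, at 178 and 164 CPM and at 109.5 and 112 CPM. Cd24a fell by 0.70 (SE 0.07) and Myrf, a membrane-bound transcription factor, by 0.69 (SE 0.07).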
